A study of Homo sapiens with 9 samples.

Results

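The genes described here are 9 genes that epithelial cells use in the acute-phase and complement response: SAA1, SAA2, LCN2, C3, CFB, C1R, C1S, PI3 and SLPI. They were picked by name, with their levels in these libraries already known, so their differences from Control are given as descriptions with no test. They are 9 of the 78894 gene identifiers measured and 9 of the 17100 genes that reached 1 TPM (a share of all transcripts in the library, scaled for transcript length) in at least 2 distinct libraries. All 9 passed that filter.

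RNA sequencing was done on CAL27, an established line of human tongue carcinoma with squamous features, in a study of an enhancer active in tumours of the head and neck. Every group was CAL27 grown in DMEM with fetal bovine serum and no added treatment: 3 Control samples, and 2 samples each of the CRISPR knockouts A2ko, A8ko and C9ko. The labels do not name the sequence removed in any knockout, do not say whether a group is a clone or a pool, and do not say how the Control cells were made. The files of both A2ko samples held identical values, as did those of both A8ko samples, so each pair entered as a single library. That gave 3 Control, 1 A2ko, 1 A8ko and 2 C9ko libraries. TPM holds no record of depth, so sequencing depth is unknown, and differences for A2ko and A8ko have no replicate check. The 3 knockouts were all compared with the same 3 Control libraries.

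Acute-phase proteins are secreted in large amounts during infection or injury, mostly by the liver but also by epithelia. Inflammatory cytokines such as IL1, IL6, TNF and IL17 switch their genes on through transcription factors of the NF-kappa-B, STAT and C/EBP families. Complement is a cascade of plasma proteases: C1R and C1S start the classical pathway, CFB drives the alternative pathway, and both lead to cleavage of C3. PI3 and SLPI are small inhibitors of neutrophil proteases made by squamous and mucosal epithelia, where they protect tissue from the enzymes that inflammation brings in.

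The labelled cell type was checked against marker genes. All 9 squamous epithelial markers, keratins KRT5, KRT14 and KRT6A among them, were at 1 TPM or more in every library, and their sum was 15638 to 16563 TPM in Control, 4976 in A2ko, 7369.7 in A8ko and 9214 to 9284 in C9ko. That sum was mostly keratin, with KRT5 alone at 8716 to 9147 TPM in Control, and the markers did not move together. In both C9ko libraries KRT5, KRT14, KRT6A, DSG3 and PKP1 lay below all Control libraries, and TP63, SFN, CDH1 and EPCAM above. In A8ko SFN, CDH1 and EPCAM lay above all Control libraries and the rest below. In A2ko, where the sum was lowest, every marker except CDH1 lay below all Control libraries, TP63 among them. None of 8 hepatocyte markers reached 1 TPM in any library (highest 0.219), and ALB, APOA1, APOA2, APOB and TTR were listed at 0 in all of them. Of 9 leukocyte markers 3 reached 1 TPM (CD14, CD68 and CSF1R), with sums of 42.6 to 50.7 in Control, 60.7 in A2ko, 83.6 in A8ko and 65.8 to 67.2 in C9ko, while ELANE was listed at 0. Of 8 fibroblast markers 3 did, with sums of 10.8 to 12.3, 17.7, 7.43 and 11.1 to 11.9 in the same order, and COL3A1 was listed at 0. Of 5 endothelial markers only CDH5 did, with list sums of 3.62 to 4.62, 13.2, 8.67 and 22.2 to 30.3, and KDR was listed at 0. The leukocyte sum also joined opposite directions in C9ko. CD14 was at 52.5 and 50.8 TPM there against 14.2 to 17.9 in Control, and CD68 at 14.1 and 14.3 against 27.8 to 32.2. The part of the lower squamous sum and the higher endothelial sum in the results was not tested. In bulk RNA, fewer cells of a type and less RNA per cell cannot be told apart.

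Promoter sequence was at hand for 3 of the 9 genes, LCN2, CFB and C1R, and is shown because these genes code for secreted proteins of 3 kinds (an iron-sequestering protein, an alternative pathway protease and a classical pathway protease) whose RNA levels differed by knockout. Each line holds the 250 bases before a RefSeq transcript start, read 5′ to 3′ on the strand of the gene, from GRCh38.p14: LCN2 at chr9:128149203-128149452 on the plus strand, CFB at chr6:31945845-31946094 on the plus strand, and C1R at chr12:7092446-7092695 on the minus strand. Capitals mark matches on either strand to 4 letter patterns chosen after the sequences had been seen: GGG and CC parted by any 5 bases (resembling a kappa-B site), TTCNNNGAA (a STAT site), TTGCNNAA (a C/EBP site), and GAAA repeated after any 2 bases (an interferon response element).
LCN2: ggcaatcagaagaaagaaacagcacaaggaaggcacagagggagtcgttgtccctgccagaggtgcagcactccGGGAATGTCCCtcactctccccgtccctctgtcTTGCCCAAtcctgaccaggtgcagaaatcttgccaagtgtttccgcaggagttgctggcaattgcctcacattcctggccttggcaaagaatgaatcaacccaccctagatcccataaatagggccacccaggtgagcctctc
CFB: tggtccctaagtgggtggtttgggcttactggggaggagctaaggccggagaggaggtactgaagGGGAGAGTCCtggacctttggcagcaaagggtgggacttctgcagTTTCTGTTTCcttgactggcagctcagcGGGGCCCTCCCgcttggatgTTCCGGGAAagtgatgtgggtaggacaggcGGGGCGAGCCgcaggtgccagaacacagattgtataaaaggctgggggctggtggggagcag
C1R: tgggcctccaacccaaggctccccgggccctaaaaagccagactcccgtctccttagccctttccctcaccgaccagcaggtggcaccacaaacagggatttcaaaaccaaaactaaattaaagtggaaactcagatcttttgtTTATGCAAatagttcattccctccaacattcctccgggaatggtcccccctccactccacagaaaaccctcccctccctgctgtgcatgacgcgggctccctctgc

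The LCN2 window held the kappa-B-like GGGAATGTCC, 176 to 167 bases before the start, which overlaps a second match on the other strand, and the C/EBP-like TTGCCCAA, 143 to 136 bases before it. The CFB window held kappa-B-like matches in 3 separate stretches, the middle of them with overlapping matches, together with the STAT-like TTCCGGGAA (92 to 84 bases before the start) and an interferon-element-like match on the minus strand (140 to 131 bases before it). The C1R window held the C/EBP-like TTATGCAA on the minus strand, 106 to 99 bases before the start. A window before a downstream C1R start held 1 match each to the kappa-B-like, STAT-like and C/EBP-like patterns. Among 35116 promoter windows of the same length in the RefSeq table, 54.4% held the kappa-B-like pattern, 6.57% the STAT-like, 9.05% the C/EBP-like and 3.02% the interferon-element-like one. A match describes letters and not a bound site.

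In all 3 knockouts the 9 genes divided by direction. The genes of the serum amyloid A and complement proteins were higher than in every Control library in all 4 knockout libraries, whereas PI3 and SLPI were lower in all 4. The SLPI difference in C9ko was small, at -0.16 log2 units (SE 0.08). These directions do not stand for roles. Of protease inhibitors outside the 9 genes, SERPINA1 and CST6 lay above Control in all 4 knockout libraries, and SERPINB1 and CSTA below. LCN2 was higher in A2ko and C9ko and level with Control in A8ko. The size of the difference ranged from 9.37 times the Control level for CFB in C9ko to a level 14.9 times below Control for PI3 in A8ko.

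**Figure D1:**
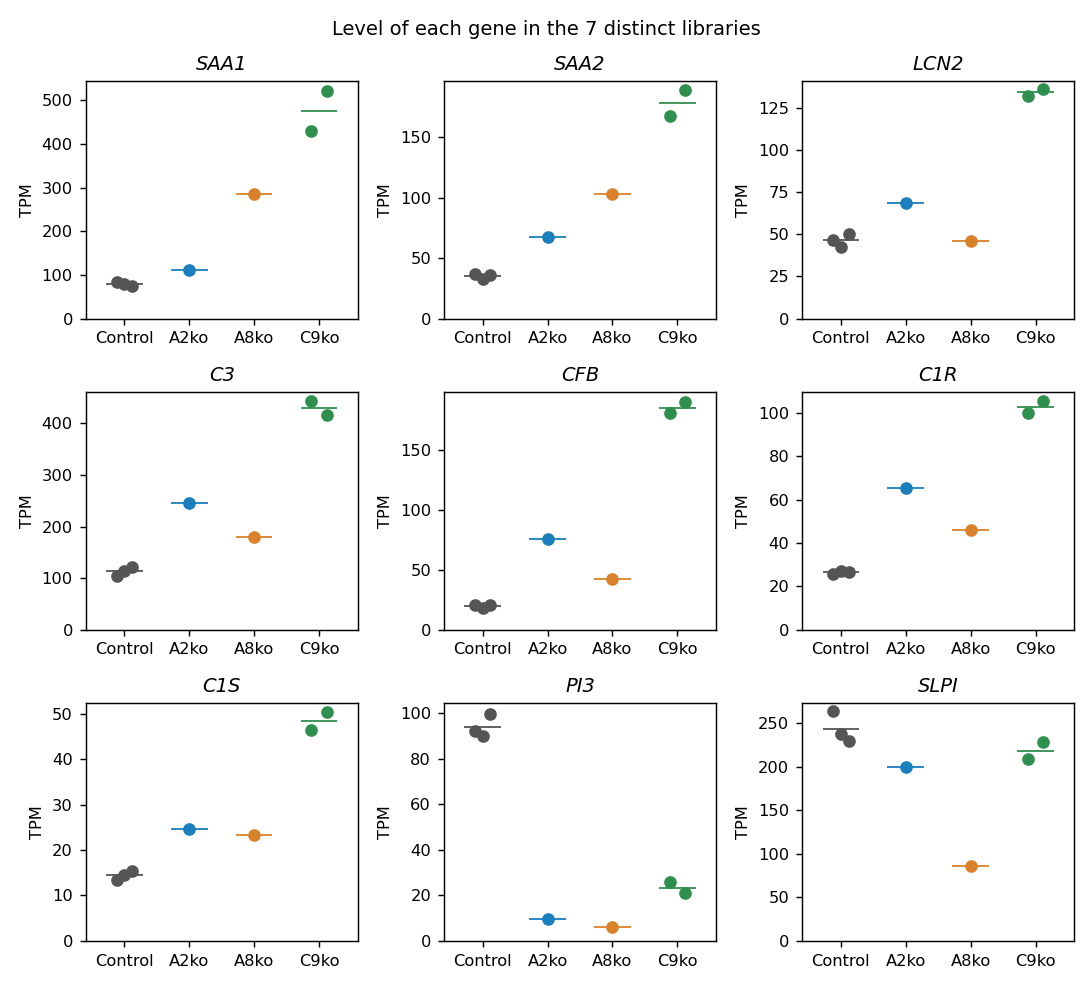
Level of each gene in TPM (vertical axis, from 0) in the 3 Control, 1 A2ko, 1 A8ko and 2 C9ko libraries; each point is a library and the line is the group mean. The 7 genes from SAA1 to C1S were highest in both C9ko libraries, and PI3 was lowest in A8ko at 6.32 TPM.

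SAA1 and SAA2 encode the inducible serum amyloid A proteins, which travel on high-density lipoprotein and attract leukocytes. SAA1 (ENSG00000173432, chromosome 11, 18266174 to 18269977, plus strand) stood at 84.5, 80.0 and 74.5 TPM in Control, 112.2 in A2ko, 285.5 in A8ko, and 429.1 and 521.8 in the C9ko libraries. The groups did not overlap, and C9ko stood highest. Against a Control mean of 79.7 ± 5.01 TPM (SD, n = 3), the log2(TPM + 1) differences in A2ko, A8ko and C9ko were 0.49, 1.83 and 2.56 (SE 0.10 for C9ko). SAA2 (ENSG00000134339, chromosome 11, 18239223 to 18248643, minus strand) stood at 36.9, 32.7 and 35.9 TPM in Control, 67.4 in A2ko, 102.8 in A8ko, and 167.3 and 188.9 in the C9ko libraries. It followed the same order of groups, with differences of 0.92, 1.52 and 2.31 (SE 0.08).

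The SAA1 and SAA2 transcripts are alike, with 507 of 533 aligned bases identical (95.1%) and an identical run of 186 bases, and how reads were shared between them is not given in the sources used here. Their sum, which does not depend on that sharing within the pair, was 121.4, 112.6 and 110.4 TPM in Control, 179.6 in A2ko, 388.3 in A8ko, and 596.4 and 710.6 in the C9ko libraries. For the sum, the log2 differences in A2ko, A8ko and C9ko were 0.64, 1.75 and 2.49. SAA1 was 2.07 to 2.45 times SAA2 in Control, 1.67 times in A2ko, 2.78 in A8ko, and 2.56 and 2.76 in the C9ko libraries. The readthrough gene SAA2-SAA4 covers all of SAA2 but a few bases on the same strand (9413 bases shared) and stood at 2.03 to 2.53 TPM in Control, 2.62 in A2ko, 8.80 in A8ko, and 14.2 and 19.1 in the C9ko libraries.

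LCN2 (ENSG00000148346, chromosome 9, 128149071 to 128153455, plus strand) encodes lipocalin 2, which starves bacteria of iron by binding their siderophores. It stood at 46.9, 42.6 and 50.0 TPM in Control, 68.4 in A2ko, 46.3 in A8ko, and 132.3 and 136.2 in the C9ko libraries. A8ko lay inside the Control range, and A2ko and C9ko lay above it. The log2 differences from the Control mean of 46.5 ± 3.74 TPM (SD, n = 3) were 0.55 in A2ko, -0.0019 in A8ko and 1.51 (SE 0.08) in C9ko. LCN2 was the only 1 of the 9 genes that did not lie on the same side of Control in every knockout library. After median-of-ratios scaling A8ko lay below all Control libraries (a difference of -0.10), and it did so too without Control 2.

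C3 (ENSG00000125730, chromosome 19, 6677704 to 6730562, minus strand) encodes the protein on which all complement pathways converge. Its level was 104.8, 113.0 and 121.4 TPM in Control, 246.0 in A2ko, 179.2 in A8ko, and 443.7 and 416.7 in the C9ko libraries. C9ko was highest and A2ko stood above A8ko, the reverse of the order seen for SAA1 and SAA2. The differences were 1.12 in A2ko, 0.66 in A8ko and 1.92 (SE 0.08) in C9ko. After median-of-ratios scaling the A2ko difference of C3 was 0.99.

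CFB (ENSG00000243649, chromosome 6, 31945650 to 31952084, plus strand) encodes factor B, the protease zymogen of the alternative pathway convertase. It stood at 20.9, 17.8 and 20.7 TPM in Control, 76.2 in A2ko, 42.5 in A8ko, and 181.4 and 190.0 in the C9ko libraries. No group overlapped another. The Control mean was 19.8 ± 1.72 TPM (SD, n = 3), and the C9ko mean was 9.37 times that level, the largest ratio among the 9 genes. On the log2 scale CFB differed by 1.89 in A2ko, 1.07 in A8ko and 3.17 (SE 0.08) in C9ko. After median-of-ratios scaling the A8ko difference was 0.97.

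C1R and C1S encode the proteases that sit on C1q: C1r cleaves C1s, and C1s cleaves C4 and C2. C1R (ENSG00000159403, chromosome 12, 7080199 to 7092607, minus strand) stood at 25.7, 27.3 and 26.7 TPM in Control, 65.4 in A2ko, 46.1 in A8ko, and 99.98 and 105.7 in the C9ko libraries. C1S (ENSG00000182326, chromosome 12, 6988259 to 7071032, plus strand) stood at 13.5, 14.6 and 15.4 TPM in Control, 24.6 in A2ko, 23.3 in A8ko, and 46.5 and 50.5 in the C9ko libraries. Both genes were above every Control library in every knockout library and highest in C9ko. The log2 differences of C1R were 1.27 in A2ko, 0.77 in A8ko and 1.91 (SE 0.06) in C9ko. Those of C1S were 0.72, 0.65 and 1.67 (SE 0.08). C1R was 1.74 to 1.90 times C1S in Control, 2.66 times in A2ko, 1.98 in A8ko, and 2.15 and 2.09 in the C9ko libraries.

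Some of these genes overlap others in GENCODE release 29, and the use of strand by the counting step is not given in the sources used here. The span of C1S overlaps LPCAT3 on the other strand and EMG1 on the same strand. LPCAT3 was at 72.0 TPM in C9ko 1 and 32.1 to 40.3 in the other distinct libraries, and EMG1 was at 36.6 in C9ko 1 and 46.1 to 57.8 in the others, whereas C1S differed little between the C9ko libraries. C1R shares 3021 bases with C1RL on the same strand, C3 shares 649 bases with GPR108, and CFB shares 23 bases with C2.

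PI3 and SLPI went the other way. PI3 (ENSG00000124102, chromosome 20, 45174876 to 45176544, plus strand) encodes elafin, an inhibitor of neutrophil elastase and proteinase 3. PI3 stood at 92.4, 90.2 and 99.7 TPM in Control, 9.49 in A2ko, 6.32 in A8ko, and 25.9 and 21.0 in the C9ko libraries. Every knockout library lay far below the Control range, with A8ko lowest and C9ko least reduced. The Control mean of 94.1 ± 5.00 TPM (SD, n = 3) was 9.92 times the A2ko level, 14.9 times the A8ko level and 4.01 times the C9ko mean. In log2 units the differences were -3.18 in A2ko, -3.70 in A8ko and -1.97 (SE 0.10) in C9ko.

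SLPI (ENSG00000124107, chromosome 20, 45252239 to 45254564, minus strand) encodes the secretory leukocyte protease inhibitor, which blocks elastase and cathepsin G. SLPI stood at 263.8, 237.6 and 229.3 TPM in Control, 199.1 in A2ko, 85.9 in A8ko, and 208.8 and 228.1 in the C9ko libraries. A8ko was lowest, whereas C9ko 2 lay just below the lowest Control library. The log2 differences were -0.29 in A2ko, -1.49 in A8ko and -0.16 (SE 0.08) in C9ko. SLPI was 2.30 to 2.85 times PI3 in Control, 21.0 times in A2ko, 13.6 in A8ko, and 8.05 and 10.9 in the C9ko libraries.

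The order of the 9 levels in TPM changed between groups. In all 3 Control libraries it ran SLPI, C3, PI3, SAA1, LCN2, SAA2, C1R, CFB and C1S, and no neighbours in that order had overlapping ranges. In C9ko 2 it ran SAA1, C3, SLPI, CFB, SAA2, LCN2, C1R, C1S and PI3, and C9ko 1 differed only in having C3 above SAA1. The ranges of SAA1 and C3, and those of CFB and SAA2, overlapped between the C9ko libraries. In A2ko C3 was highest and in A8ko SAA1 was, and PI3 moved from below C3 in Control to last in every knockout library. CFB came nearer to C3 in level: C3 was 5.01 to 6.34 times CFB in Control, 3.23 times in A2ko, 4.22 in A8ko, and 2.45 and 2.19 in the C9ko libraries. The 9 genes summed to 655.8 to 689.4 TPM in Control, 868.6 in A2ko, 817.8 in A8ko, and 1735 and 1859 in the C9ko libraries.

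**Figure D2:**
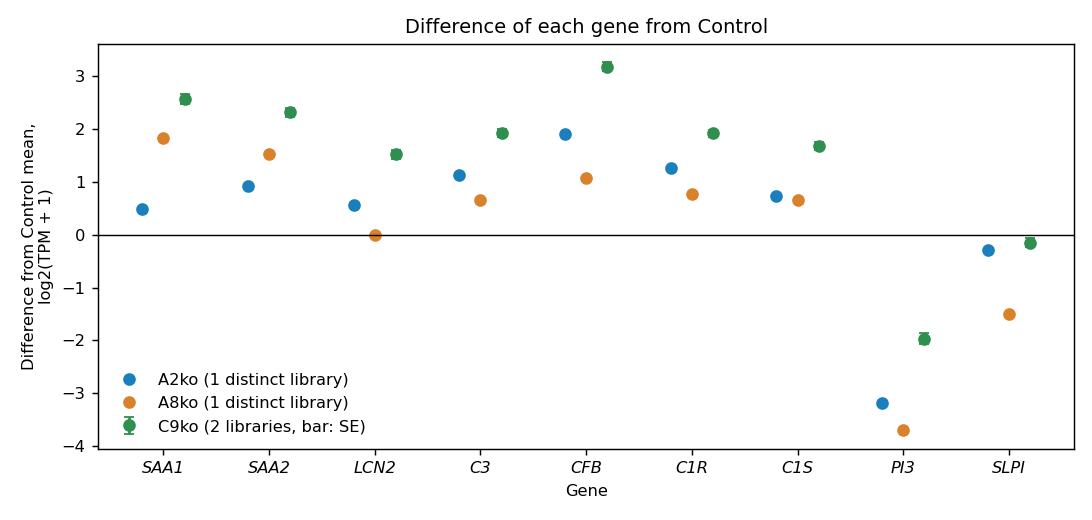
Difference of each gene from the Control mean in log2(TPM + 1) units (vertical axis) for A2ko and A8ko (1 distinct library each) and C9ko (mean of 2 libraries, bars are the standard error of the fit). C3, CFB and C1R differed more in A2ko than in A8ko, SAA1 and SAA2 more in A8ko than in A2ko, and PI3 was lower in all 3.

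Counted over the 9 genes, 7 lay above every Control library in A2ko, 6 in A8ko and 7 in C9ko, beside 50.4%, 46.9% and 41.1% of all 17100 tested genes. In each knockout 2 lay below every Control library, beside 26.3%, 26.4% and 16.4% of tested genes. Across all 4 knockout libraries 6 lay above and 2 below every Control library, beside 17.0% and 4.61% of tested genes. At 1 log2 unit or more from the Control mean and outside the Control range, C3, CFB and C1R were higher in A2ko (3.54% of tested genes), SAA1, SAA2 and CFB in A8ko (2.05%), and 7 genes in C9ko (3.33%). By the same rule PI3 was lower in A2ko (1.53%) and C9ko (1.78%), and PI3 and SLPI in A8ko (2.68%). Since the genes were picked for these contrasts, nothing is read from these counts.

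The median difference over all tested genes was itself above 0, at 0.12 log2 units in A2ko, 0.09 in A8ko and 0.11 in C9ko. Median-of-ratios scaling brought these medians to 0.005, 0.003 and -0.005. Transcripts of the mitochondrial genome took 23.1% to 26.9% of TPM in Control, 25.2% in A2ko, 20.6% in A8ko and 17.9% to 20.2% in C9ko. Between 15556 and 16716 genes per library reached 1 TPM. Of the 5038 genes called in C9ko by limma, 74.8% were higher, compared with 54.6% after median-of-ratios scaling and 60.4% after rescaling without mitochondrial genes.

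The genes with the most similar profile were found as the root mean square difference, in log2 units over the 7 distinct libraries, between 2 genes' differences from their own Control means. C3 and C1R had each other as nearest gene, at 0.095, although they lie on different chromosomes. Next to C1R came WFDC2 (0.110) and CSGALNACT1 (0.114), and next to C3 CSGALNACT1 (0.127) and MSRB3 (0.143). SAA1 lay nearest SAA2-SAA4 (0.204), RAB42 (0.243) and SAA2 (0.250), and SAA2 lay nearest SIRPA (0.134), CST6 (0.163) and TGFB2 (0.186). LCN2 lay nearest BCL2A1 (0.074), CD14 (0.092) and TGFBR2 (0.101), and C1S nearest SLC41A2 (0.113), C11orf86 (0.127) and OLR1 (0.131). The nearest genes to CFB were PDZK1IP1 (0.348), SUSD2 (0.355) and CXCL14 (0.381). Those nearest to PI3 were PTN (0.207), H19 (0.455) and AQP3 (0.558). SLPI lay nearest PCSK5 (0.150), SAMD9L (0.155) and PLCB1 (0.160). Likeness over 7 libraries in 4 groups is a description of these libraries.

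Genes within 1 Mb of the 9 genes were examined in C9ko. Over all windows 63 of 292 tested neighbours (21.6%) were called higher by limma at an adjusted p under 0.05 and 17 (5.82%) lower, beside 22.0% and 7.42% of all tested genes. By gene the share higher ran from 50.0% (10 of 20) around SAA1 and SAA2 through 34.8% (24 of 69) around CFB and 33.3% (13 of 39) around PI3 to 13.3% (6 of 45) around C3, 12.9% (9 of 70) around LCN2 and 2.04% (1 of 49) around C1R. Within 5 Mb the share was 30.8% (12 of 39) around SAA1 and SAA2, 19.5% (25 of 128) around LCN2 and 20.4% (23 of 113) around C1R, so these shares depend on the window. The neighbours of SAA1 and SAA2 include SAA2-SAA4 and the rRNA pseudogenes RNA5SP333 and RNA5SP334. These overlap SAA1 or SAA2 on the same strand and may share their reads, so they are not separate from the genes described. Around PI3, 13 called genes were higher and 3 lower, while 74.8% of all called genes were higher. WFDC2, a relative with the same WAP fold that lies 293 kb from PI3 and 215 kb from SLPI, stood at 139.3 to 152.0 TPM in Control, 409.9 in A2ko, 255.0 in A8ko, and 513.6 and 545.9 in the C9ko libraries. In both C9ko libraries it was above Control, and limma put the rise at 1.87 log2 units (adjusted p 1.63e-05).

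**Figure D3:**
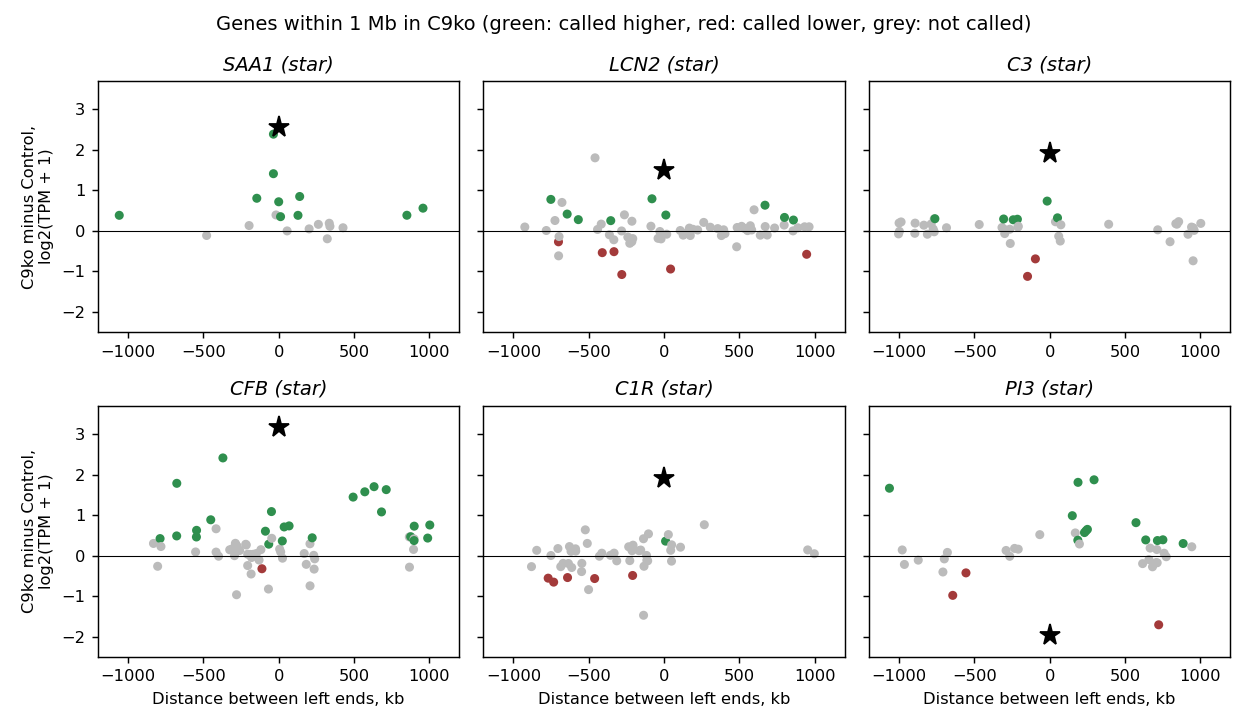
Difference between C9ko and Control in log2(TPM + 1) units (vertical axis) for tested genes within 1 Mb of 6 of the genes, against the distance between left ends in kb; green points were called higher, red lower and grey not called, and the star is the gene itself. Around PI3, 13 of 39 genes were called higher while PI3 was lower, and around C1R 1 of 49 was.

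The rest of the pathway was read from 6 lists of 162 genes, none of them among the 9, of which 98 were tested. In C9ko limma called 61 of the 98 higher and 12 lower (62.2% and 12.2%, beside 22.0% and 7.42% of all tested genes). The median differences over the 98 in A2ko, A8ko and C9ko were 0.24, 0.11 and 0.53, beside 0.12, 0.09 and 0.11 over all tested genes. By the 1 log2 rule 13 were higher and 2 lower in A2ko (3.54% and 1.53% of tested genes), and 16 higher and 12 lower in A8ko (2.05% and 2.68%). Every knockout library lay above every Control library for 30 of the 98 and below for 5 (17.0% and 4.61% of tested genes). The lists were written with earlier results of these libraries known, so their counts are not independent evidence of direction. The shares and medians over all tested genes given here are also the comparison for each list below.

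**Figure D4:**
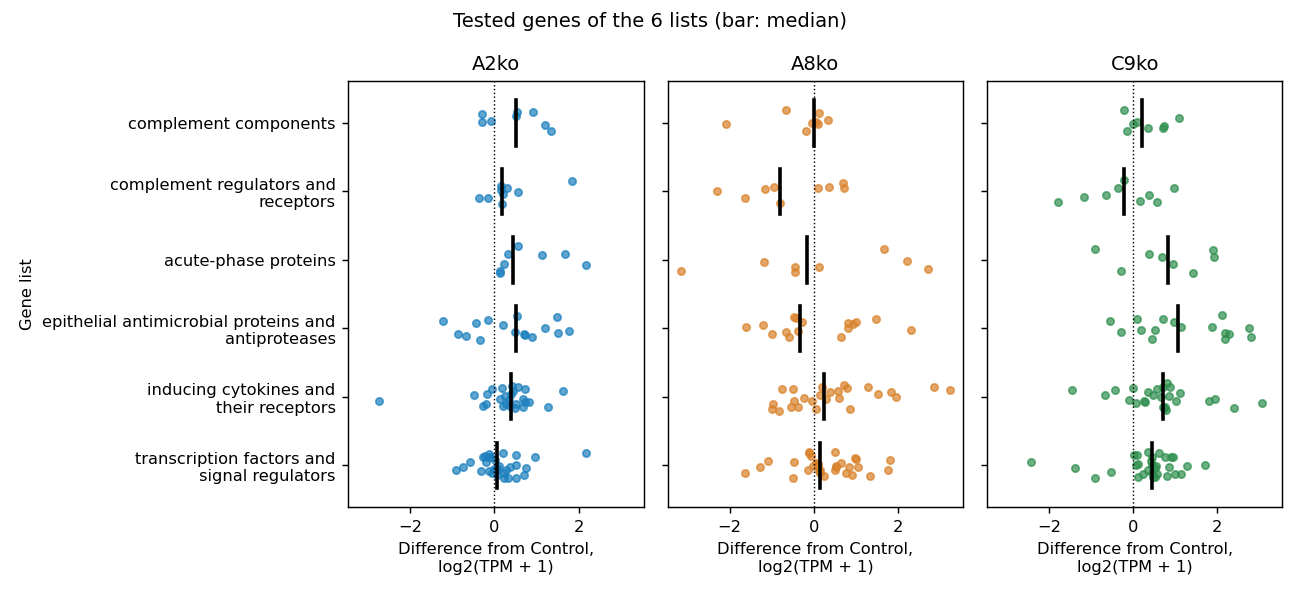
Difference from the Control mean in log2(TPM + 1) units (horizontal axis) of the tested genes of the 6 lists (rows) in A2ko, A8ko and C9ko; each point is a gene and the bar is the list's median. In C9ko the medians ran from -0.21 for complement regulators and receptors to 1.07 for antimicrobial proteins and antiproteases.

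Of 25 other complement components 8 were tested, and 4 rose in C9ko with none lower. The medians in A2ko, A8ko and C9ko were 0.52, 0.01 and 0.22, and the A8ko median turned to -0.06 after median-of-ratios scaling and to -0.04 without mitochondrial genes. C2, the classical pathway protease encoded beside CFB, rose by 1.09 (limma adjusted p 0.00331). It was at 4.96 and 4.35 TPM in the C9ko libraries against 1.29 to 2.16 in Control. C4A and C4B, which are near-identical copies whose reads may be split between them, rose by 0.71 and 0.73 (limma adjusted p 0.0124 and 0.0141). Neither call held with either C9ko library left out, or with no filter on low values. C1RL, a protease related to C1R, rose by 0.36 (limma adjusted p 0.0155), a call lost without C9ko 1, with no filter and after median-of-ratios scaling. C4A was also higher in A2ko, at 4.37 TPM against 0.866 to 1.36 in Control. MASP2, the lectin pathway protease, was at 0.694 TPM in A8ko against 6.06 to 6.31 in Control.

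Of 23 complement regulators and receptors 9 were tested, with 3 higher and 3 lower in C9ko and medians of 0.17, -0.81 and -0.21 in A2ko, A8ko and C9ko. The membrane regulators CD55, which takes convertases apart, and CD46, a cofactor for C3b cleavage, rose by 0.96 and 0.38 (limma adjusted p 0.000572 and 0.0094), and both lay above Control in all 4 knockout libraries. ITGAM, a subunit of complement receptor 3, rose by 0.58 (limma adjusted p 0.0443). The call of CD46 was lost without C9ko 2 and with no filter on low values. That of ITGAM was lost without Control 1 or Control 2, with no filter, with a pseudocount of 0.1 and under both other scalings, and ITGAM missed the filter without either C9ko library. SUSD4, CLU and CFI fell by 1.79, 1.17 and 0.63 (limma adjusted p 0.000119, 8.8e-05 and 0.00971). CFI, which encodes the protease factor I that inactivates C3b, stood at 2.33 to 2.83 TPM in Control, 11.8 in A2ko, 0.157 in A8ko, and 1.26 and 1.35 in the C9ko libraries.

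Of 21 other acute-phase proteins 8 were tested, with 5 higher and 1 lower in C9ko and medians of 0.45, -0.15 and 0.82 in A2ko, A8ko and C9ko. SERPINA1, the gene of alpha-1-antitrypsin, stood at 1.51 to 2.51 TPM in Control, 12.6 in A2ko, 13.0 in A8ko, and 10.5 and 10.1 in the C9ko libraries, and rose in C9ko by 1.91 (limma adjusted p 0.000197). PTX3, a soluble pattern receptor, stood at 2.98 to 3.99 TPM in Control, 8.55 in A2ko, 27.6 in A8ko, and 16.2 and 14.7 in the C9ko libraries, and rose in C9ko by 1.91 (limma adjusted p 8.45e-05). These genes were at least 1 log2 unit higher in every knockout. SAA4, the constitutive serum amyloid A gene 2.33 kb from SAA2, rose by 1.41 (limma adjusted p 0.000565) and stood at 6.71 TPM in A8ko against 1.10 to 1.66 in Control. STEAP4, a metalloreductase, rose by 0.95 (limma adjusted p 0.0043). SERPINA3, an inhibitor of cathepsin G, was split by knockout: 7.24 to 9.04 TPM in Control, 27.4 in A2ko, 0.0018 in A8ko, and 3.49 and 4.13 in the C9ko libraries, where it fell by 0.89 (limma adjusted p 0.00216). CP, the gene of ceruloplasmin, was at 0.0748 TPM in A8ko against 1.40 to 1.46 in Control.

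Of 25 other epithelial antimicrobial proteins and antiproteases 16 were tested, with 11 higher and 1 lower in C9ko and medians of 0.51, -0.32 and 1.07 in A2ko, A8ko and C9ko. The subunits of calprotectin, which sequesters zinc and manganese, were among the most abundant: S100A9 stood at 471.6 to 514.6 TPM in Control, 712.5 in A2ko, 870.9 in A8ko, and 2406 and 2349 in the C9ko libraries. It rose in C9ko by 2.27 (SE 0.07, limma adjusted p 8.92e-06). S100A8 rose by 2.18 in C9ko (limma adjusted p 2.31e-05), from 210.3 to 255.8 TPM in Control to 1025 and 1051, but was at 143.4 in A2ko. LTF, the gene of lactoferrin, rose by 2.80 (limma adjusted p 7.35e-05) from 0.0955 to 0.346 TPM in Control to 7.95 and 6.87, and S100A7, psoriasin, rose by 2.76 (limma adjusted p 0.000281). LTF was at 0.388 TPM in A2ko and 0 in A8ko, so it passed the filter on low values through the C9ko libraries alone. PIGR, also among the 11 higher, passed in the same way. The calls of LTF and PIGR are therefore not independent of the filter. RNASE7, a skin ribonuclease that kills bacteria, stood at 5.73 to 7.51 TPM in Control, 20.4 in A2ko, 36.5 in A8ko, and 15.5 and 16.2 in the C9ko libraries, and rose in C9ko by 1.15 (limma adjusted p 0.000481). CST6, a cystatin, was at 24.6 TPM in A8ko against 7.27 to 10.0 in Control. DEFB1, a beta-defensin, was at 4.16 TPM in A2ko against 0.265 to 0.813 in Control.

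The other protease inhibitors on that list did not share one direction. SERPINB1, which like SLPI inhibits elastase and cathepsin G, fell in C9ko by 0.55 (limma adjusted p 0.000892) and lay below Control in all 4 knockout libraries: 157.0 to 166.8 TPM in Control, 119.6 in A2ko, 52.7 in A8ko, and 113.3 and 109.6 in the C9ko libraries. CSTA, cystatin A of the cornified envelope, also lay below Control in all 4, at 32.3 TPM in A2ko against 67.9 to 88.5 in Control. SERPINB3, whose reads may be shared with its near-identical neighbour SERPINB4, was at 60.3 TPM in A2ko, 15.0 in A8ko, 40.0 and 42.4 in the C9ko libraries, and 35.3 to 36.8 in Control. SERPINB4, chosen after its values were seen and not by the naming rule, rose in C9ko by 0.71 (limma adjusted p 0.000343). CST6 rose in C9ko by 2.18 (limma adjusted p 9.85e-05) and lay above Control in all 4 knockout libraries.

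Of 35 cytokines and receptors that induce such genes 26 were tested, with 19 higher and 3 lower in C9ko and medians of 0.39, 0.24 and 0.71 in A2ko, A8ko and C9ko. IL6, the main inducer of the acute phase, stood at 12.1, 14.1 and 12.9 TPM in Control, 17.6 in A2ko, 130.5 in A8ko, and 109.7 and 121.5 in the C9ko libraries. IL6 rose in C9ko by 3.06 (SE 0.08, limma adjusted p 7.05e-06). TNF stood at 1.18 to 1.67 TPM in Control, 2.95 in A2ko, 16.4 in A8ko, and 11.3 and 12.2 in the C9ko libraries, and rose in C9ko by 2.41 (limma adjusted p 3.49e-05). LIF, a cytokine of the IL6 family, rose by 1.79 (limma adjusted p 2.79e-05) and was at 44.6 TPM in A8ko and 14.3 in A2ko, against 12.5 at most in Control. For IL6, TNF and LIF, as for SAA1 and SAA2, the A2ko library stood nearest to Control. IL17C, an epithelial cytokine, was higher by at least 1 log2 unit in every knockout, at 1.98 TPM in A2ko, 2.03 in A8ko, and 4.06 and 3.56 in the C9ko libraries against 0.177 to 0.368 in Control. IL11 was at 2.99 TPM in A2ko against 0.182 to 0.415 in Control. IL1A stood at 31.4 to 36.7 TPM in Control, 4.30 in A2ko, 135.3 in A8ko, and 53.9 and 60.0 in the C9ko libraries. The receptor genes TLR5, IL22RA1 and TLR3 fell in C9ko by 1.45, 0.67 and 0.44 (limma adjusted p 0.00086, 0.00317 and 0.0167), and the call of TLR3 was lost without Control 2 and without C9ko 2.

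Of 33 transcription factors and signal regulators 31 were tested, with 19 higher and 4 lower in C9ko and medians of 0.06, 0.16 and 0.46 in A2ko, A8ko and C9ko. The A2ko median lay under the 0.12 of all tested genes, and it was -0.07 after median-of-ratios scaling. TNFAIP3, a feedback inhibitor of NF-kappa-B, stood at 33.2 to 36.1 TPM in Control, 32.6 in A2ko, 123.7 in A8ko, and 114.2 and 115.3 in the C9ko libraries, and rose in C9ko by 1.70 (limma adjusted p 1.63e-05). NFKBIZ, a cofactor of NF-kappa-B at acute-phase genes, rose by 0.998 (limma adjusted p 0.000108) and was at 53.4 TPM in A8ko and 22.5 in A2ko against 25.8 to 26.5 in Control. The AP-1 genes did not share one direction: FOSL1 and JUN rose in C9ko by 1.28 and 1.13 (limma adjusted p 3.33e-05 and 0.000229), and FOS and JUNB fell by 2.44 and 0.52 (limma adjusted p 5.7e-06 and 0.00236). CEBPA, a C/EBP factor, fell by 1.39 (limma adjusted p 0.000156) and lay below Control in all 4 knockout libraries. ELF3, an epithelial ETS factor, fell by 0.91 (limma adjusted p 0.000189) and was at 54.9 TPM in A8ko and 210.2 in A2ko against 162.1 to 181.8 in Control. IRF9, of the interferon response, was at 47.4 TPM in A2ko against 6.25 to 13.4 in Control and was not called in C9ko.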

How the data were processed

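RNA of 9 CAL27 samples was measured. The authors deposited TPM values per Ensembl gene, with 78894 identifiers per sample. The genome build is hg38, per the submitters' processing notes; the aligner, the quantification tool and the annotation are not given in the sources used here. Symbols were matched for 61463 identifiers. GENCODE release 29 (GRCh38) gave positions for 15666 of the 17100 tested genes, and RefSeq on GRCh38.p14 the promoter windows.

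The 9 genes and the 6 lists were chosen with earlier results of these data known. Files with identical values counted as 1 library. Values were analysed as log2(TPM + 1), which understates changes of low genes, for genes at 1 TPM or more in at least 2 of the 7 distinct libraries. A gene could pass that filter through the 2 C9ko libraries alone, but not through the single A2ko or A8ko library alone. C9ko was compared with Control in a single limma fit (version 3.58.1, R 4.3.3) of all 4 groups (lmFit, eBayes with trend, two-sided), with Benjamini-Hochberg adjustment over 17100 genes and calls at adjusted p under 0.05. The single A2ko and A8ko libraries have no test. Samples are not stated to be separate cultures, so p-values measure the spread between these libraries, which may be technical.

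List genes were named by rule: per list and direction, up to 4 called in C9ko and up to 2 beyond the Control range by 1 log2 unit in A2ko and in A8ko, each with the largest difference among genes whose mean reached 1 TPM in the higher group, plus those at least 1 log2 unit away in every knockout. SERPINB4 and PIGR were named after their values were seen. On simulated data with 17100 genes, 200 of them changed, the C9ko fit recovered 92.5% of changes of 1 log2 unit (6.09% of its calls were false) and 99.0% of changes of 2 log2 units (3.88% false). The simulated noise was independent, with the spread of the fit itself, and the changed genes were far fewer than the 5038 called here. These rates may therefore not hold for the real calls. The alternatives were another pseudocount, other filters, 2 other scalings, each library left out, all 9 files, a replicate block and a wider window.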

Additional observations from a re-analysis of the deposited data

Results flagged for a closer look

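None of the 9 acute-phase and complement genes stood on opposite sides of Control in different knockouts by every library with the values as deposited. LCN2 lay below Control in A8ko and above it in A2ko and C9ko after median-of-ratios scaling and without Control 2. Among the 46 other pathway genes named by rule, 19 did. For these, every library of at least 1 knockout lay above all Control libraries and every library of another below them. The 46 were named for large differences, and the share of all tested genes on opposite sides was not counted. Over all tested genes, 50.4% lay above every Control library in A2ko and 26.4% below in A8ko, so nothing is read from the count. The difference between knockouts was not tested, and A2ko and A8ko are single distinct libraries. The value after each gene is the log2 distance from its lowest to its highest knockout. That distance can come almost wholly from 1 side. In A2ko LTF was at 0.388 TPM against 0.346 at most in Control, and TNFAIP3 at 32.6 against 33.2 at least. LTF and DEFB1 were listed at 0 in A8ko. Only SERPINA3, CFI, IL1A and IRF9 were at least 1 log2 unit from Control on both sides. Above Control in A2ko and below it in A8ko and C9ko were SERPINA3 (4.83), CFI (3.46), FOS (3.19), ELF3 (1.92), TLR5 (1.83), CP (1.74), CLU (1.37), IL22RA1 (1.16) and JUNB (0.62). Above in A8ko and C9ko and below in A2ko were IL1A (4.69), S100A8 (2.85), FOSL1 (2.69), TNFAIP3 (1.89) and NFKBIZ (1.21). Above in A2ko and C9ko and below in A8ko were LTF (3.07), SERPINB3 (1.94) and STEAP4 (1.39). Above in A2ko and below in A8ko, with C9ko on neither side, were IRF9 (3.28) and DEFB1 (2.37).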

How the results depend on the processing

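Of 240 alternative values for the differences of the 9 genes, 201 moved by less than 1 Control SD and 39 by more, and 0 changed sign among differences that lay beyond the Control range. The 201 include all values under the other filters on low values, which cannot change a difference of group means, so that count overstates stability. For the named list genes in C9ko, 594 of 624 alternative values kept direction and call, 24 lost the call, 3 gained it, 3 moved with no call to lose and 0 reversed. The count of genes beyond the Control range by 1 log2 unit (867 in A2ko, 809 in A8ko) was 1813 and 1689 with a pseudocount of 0.1, and 380 and 412 with a minimum mean of 5 TPM. The 5038 genes called in C9ko became 3334 to 4204 with single libraries left out (a lone C9ko library is then assumed to vary like Control), 3246 with a replicate block and 8166 with all 9 files. The 3699 genes beyond Control in all knockout libraries became 3990 to 4864 with single libraries left out. For a gene that stays tested, leaving a library out can only loosen that rule, so the rise says nothing about stability. Complement components called in C9ko numbered 4, but 1 with no filter, 1 with a minimum mean of 5 TPM and 1 to 4 with single libraries left out. Called complement regulators and receptors went from 6 to 3 with the replicate block. The block pairs Control 1 and 2 with C9ko 1 and 2 by their number alone. The deviations of these pairs correlated at -0.053 and -0.012. The deviations of the 2 C9ko libraries mirror each other, so these values cannot show whether samples of the same number share a batch. The pooled share of neighbours higher in C9ko was 21.6% within 1 Mb and 21.5% within 5 Mb, but it moved from 2.04% to 20.4% around C1R, from 12.9% to 19.5% around LCN2 and from 50.0% to 30.8% around SAA1 and SAA2. TPM gives no depth, so the precision of low genes is unknown.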
